A study of Mus musculus with 6 samples.

Results

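The genes that write, erase and read DNA methylation were followed in satellite cells, from which skeletal muscle regenerates. They were taken by name as Dnmt1, Dnmt3a, Dnmt3b, Uhrf1, Tet1, Tet2, Tet3 and Zfp57, and all 8 were found among the 39059 genes counted. Each of the 8 passed the filter on low counts. The cells were isolated by flow cytometry from hind limb muscle of mice aged 19 postnatal days, on the C57BL/6J background. 3 libraries came from mice homozygous for Lmna Δ8-11, a truncating deletion in Lmna, which encodes A-type lamins of the nuclear lamina (HOM), and 3 from mice with 2 intact Lmna alleles (WT). The labels name no treatment and no cell-type-specific driver, so the deletion is taken to be present in every cell type of the HOM mice.

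In mammals, methyl groups are placed on cytosines of CpG dinucleotides by the de novo enzymes Dnmt3a and Dnmt3b and are copied to the new strand at each DNA replication by Dnmt1, which Uhrf1 brings to half-methylated sites. Tet1, Tet2 and Tet3 oxidise methylcytosine and so start its removal. Zfp57 binds methylated DNA at imprinted regions and keeps the mark there through Trim28. Copying is needed in dividing cells, so Dnmt1 and Uhrf1 are usually expressed with the genes of S phase.

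Gene totals ran from 6613636 to 9552751 reads per library. Lmna itself was at 374 to 449 CPM (counts per 1 M gene reads, with totals adjusted by the TMM method) in HOM and at 840 to 1054 CPM in WT libraries. Gm42418, a transcript that overlaps ribosomal RNA sequence, stood at 13154 CPM in HOM replicate 2 and 14569 CPM in WT replicate 2, against 936 to 1805 CPM in the other 4 libraries. Y-linked reads were present in 1 of 3 HOM libraries (replicate 2) and 2 of 3 WT libraries (replicates 2 and 3), so the genotypes were not balanced in this. With these reads as a covariate 1933 genes were called, against 2980 without it, and Tet1 was at -1.25 on the log2 scale (adjusted p = 0.011, edgeR). Satellite cell markers (Pax7, Myf5, Cdh15, Calcr, Vcam1, Chodl, Itga7) were all detected and summed to 534 to 1210 CPM in HOM and 1540 to 1649 CPM in WT libraries. Markers of smooth muscle cells or pericytes were more abundant than these in both genotypes, at 11228 to 12075 CPM in HOM and 10835 to 15507 CPM in WT libraries. Markers of committed muscle cells summed to 102 to 140 CPM in HOM and 177 to 272 CPM in WT libraries (3 of 5 lower), and those of adipocytes to 18.3 to 102 CPM in HOM and 0.346 to 0.886 CPM in WT libraries (2 of 3 higher, the other with too few reads to test). Their part in the results was not tested. In bulk RNA, fewer cells of a type and less RNA per cell cannot be told apart. The labels do not tie each library to its own animal, so p-values measure the spread between these libraries, which may be technical in part. Y-linked reads were present in some libraries of each genotype and absent from others, so the libraries of a genotype did not all come from 1 animal.

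Of the 8 genes, 1 was lower in HOM libraries and 0 were higher with edgeR's quasi-likelihood test at an adjusted p under 0.05. That is 12.5% of the group, beside 21.1% of all 14099 genes tested, of which 11.5% were lower and 9.67% higher. 2 of the 8 had an unadjusted p under 0.05, and DESeq2 also called 1. The gene that fell was Tet1. Their median log2 fold change (HOM over WT) was -0.22, against -0.0038 over all genes tested. HOM and WT values did not overlap for Tet1 and overlapped for the other 7, whereas they did not overlap for 40.7% of all genes tested. The plot of fold changes shows the estimates with their intervals.

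**Figure D1:**
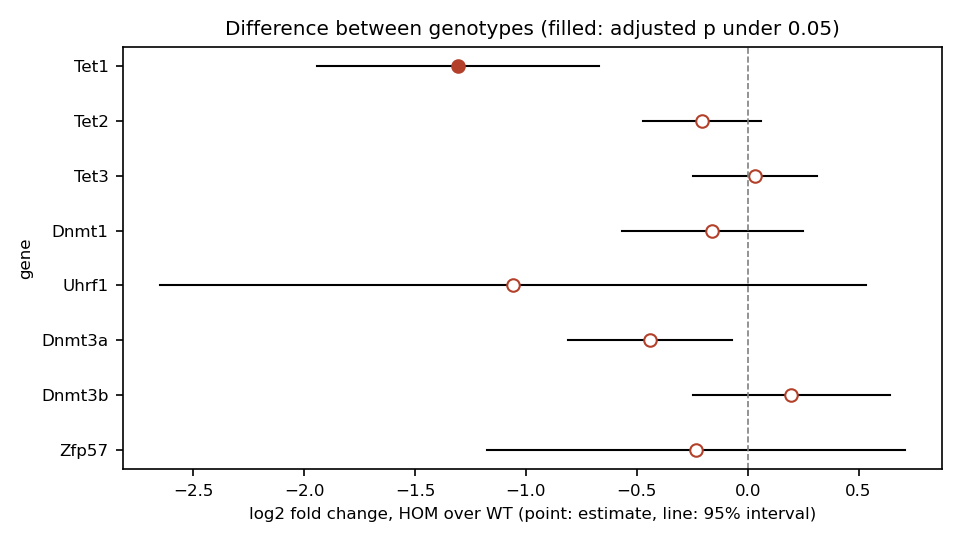
Log2 fold change of each gene, HOM over WT, with its 95% interval before correction for multiple tests, from edgeR's quasi-likelihood fit on 3 libraries per genotype. Tet1, at -1.31, is the only filled point (adjusted p under 0.05), and the interval of Uhrf1 is the widest, from -2.65 to 0.53.

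The order of the 8 genes was read on a per-length scale, as CPM per kilobase of all annotated exons. In HOM libraries the means ran from Tet2 (5.80 ± 0.57, SD, n = 3) and Dnmt1 (5.70 ± 0.30) through Tet3 (4.62 ± 0.21) and Dnmt3a (4.52 ± 1.08) to Dnmt3b (1.50 ± 0.13), Uhrf1 (1.25 ± 0.77), Tet1 (1.13 ± 0.59) and Zfp57 (0.67 ± 0.18). In WT libraries the order was Tet2 (6.68 ± 0.63), Dnmt1 (6.39 ± 1.90), Dnmt3a (6.13 ± 0.73), Tet3 (4.51 ± 0.66), Tet1 (2.83 ± 0.22), Uhrf1 (2.62 ± 2.75), Dnmt3b (1.31 ± 0.16) and Zfp57 (0.78 ± 0.47). Neighbours in these orders overlapped between libraries, except Dnmt1 and Tet3, and Dnmt3a and Dnmt3b, in HOM, and Dnmt3a and Tet3, and Tet3 and Tet1, in WT. By its mean Tet1 stood below Uhrf1 and Dnmt3b in HOM and above both in WT libraries. The exon length counts every annotated transcript, so levels of genes with many alternative exons are understated.

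**Figure D2:**
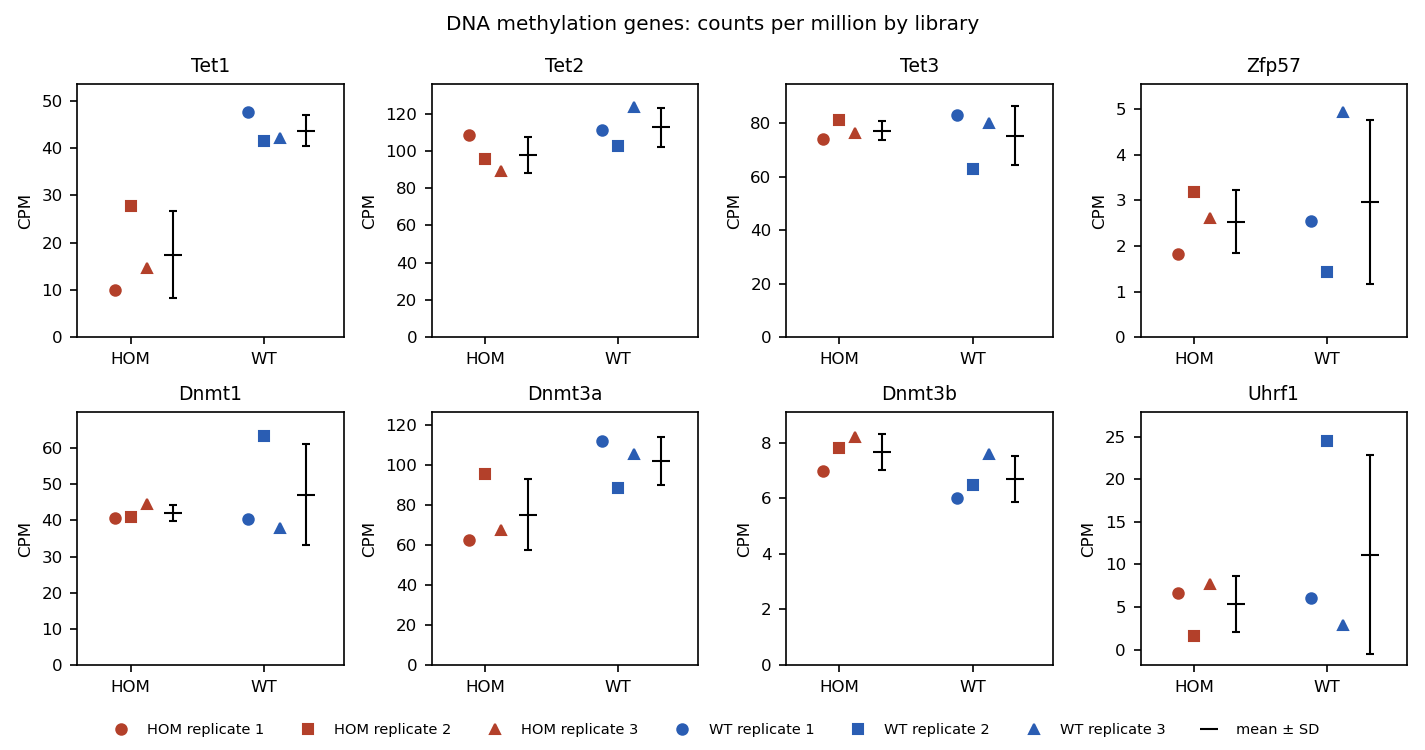
CPM of each of the 8 genes in the 3 HOM and 3 WT libraries (points) with the mean and SD of each genotype (black). For Tet1 the HOM libraries, at 10.04 to 27.7 CPM, all lie below the WT libraries, at 41.5 to 47.5 CPM, and for the other 7 genes the genotypes overlap.

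The 3 erasers are shown by their promoters, since they share an activity and 1 of them, Tet1, passed the test. The sequences are those of RefSeq on build GRCm38.p6, from 250 bases before to 50 bases after the annotated start, on the gene's strand, which is the minus strand for all 3. They lie at chr10:62887275-62887574 for Tet1, chr3:133544341-133544640 for Tet2 and chr6:83441629-83441928 for Tet3. On the minus strand a gene begins at its highest coordinate, in GENCODE 62908996 for Tet1, 133545139 for Tet2 and 83459084 for Tet3. The Tet2 window lies near that outer end. Those of Tet1 and Tet3 lie well inside the gene, so the windows compare starts of unlike position. Capitals mark CpG dinucleotides, the substrate of the pathway itself.
Tet1: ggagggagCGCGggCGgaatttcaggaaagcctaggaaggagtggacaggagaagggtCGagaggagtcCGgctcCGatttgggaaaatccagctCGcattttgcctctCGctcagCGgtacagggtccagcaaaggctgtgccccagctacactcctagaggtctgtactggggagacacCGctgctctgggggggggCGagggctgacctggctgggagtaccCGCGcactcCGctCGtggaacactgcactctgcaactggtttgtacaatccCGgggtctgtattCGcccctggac
Tet2: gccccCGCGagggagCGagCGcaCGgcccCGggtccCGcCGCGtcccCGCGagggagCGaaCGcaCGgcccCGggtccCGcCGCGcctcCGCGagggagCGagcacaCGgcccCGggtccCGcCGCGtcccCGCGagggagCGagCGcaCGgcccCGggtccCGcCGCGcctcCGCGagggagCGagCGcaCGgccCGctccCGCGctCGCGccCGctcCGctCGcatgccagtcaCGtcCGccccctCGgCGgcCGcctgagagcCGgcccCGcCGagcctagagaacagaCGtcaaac
Tet3: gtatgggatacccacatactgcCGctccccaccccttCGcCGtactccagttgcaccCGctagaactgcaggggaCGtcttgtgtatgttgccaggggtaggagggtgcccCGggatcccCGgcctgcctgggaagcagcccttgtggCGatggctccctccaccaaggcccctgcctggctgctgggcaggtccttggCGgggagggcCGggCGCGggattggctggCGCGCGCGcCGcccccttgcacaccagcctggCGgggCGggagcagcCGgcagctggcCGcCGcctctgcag
The Tet1 window held 17 CpGs, the Tet2 window 57 and the Tet3 window 22. Windows with at least as many CpGs made up 31.4%, 0.152% and 23.1% of the 32851 windows of all genes, whose median was 7. The counts do not tell which start site was used, and methylation of these windows was not measured here.

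Tet1 (chromosome 10, 62804570 to 62908996, minus strand, GRCm38) encodes an oxygenase that carries its own CXXC zinc finger for CpG-rich DNA. It had 10.04, 27.7 and 14.6 CPM in HOM replicates 1, 2 and 3, against 47.5, 41.5 and 42.03 CPM in WT replicates 1, 2 and 3. All HOM libraries lay below all WT libraries, and HOM replicate 2 lay between the other HOM libraries and WT. In reads, these are 72, 262 and 112 in HOM and 412, 262 and 332 in WT libraries. The means were 17.4 ± 9.16 CPM in HOM and 43.7 ± 3.33 CPM in WT libraries (SD, n = 3), a log2 fold change of -1.31 (SE 0.29, 95% interval -1.94 to -0.67, adjusted p = 0.0114 with edgeR's quasi-likelihood test), or 2.47-fold lower. Tet1 passed the test in all 14 alternative analyses, with log2 fold changes of -1.86 to -1.03 and adjusted p-values of 6.19e-14 to 0.0458. Without HOM replicate 2 it was at -1.82.

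Tet2 (chromosome 3, 133463679 to 133545139, minus strand) encodes the eraser that lacks a CXXC finger of its own and is known for its loss in blood cancers. It had 108, 95.9 and 89.3 CPM in HOM and 111, 103 and 124 CPM in WT libraries. The HOM values lay in the lower part of the range and overlapped the WT values. The fit put the difference at -0.20 on the log2 scale (SE 0.12, 95% interval -0.47 to 0.06, adjusted p = 0.249, edgeR). Tet3 (chromosome 6, 83362373 to 83459084, minus strand), the eraser of the paternal genome in the mouse zygote, had 74.2, 81.1 and 76.2 CPM in HOM and 83.2, 62.8 and 80.001 CPM in WT libraries. All HOM values fell within the WT range, and the log2 fold change was 0.03 (SE 0.13, 95% interval -0.25 to 0.31, adjusted p = 0.875, edgeR). Its sign turned without HOM replicate 2 or without WT replicate 2.

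Summed per length, the 3 Tet genes stood at 11.5, 12.3 and 10.8 CPM per kilobase in HOM and 14.7, 12.5 and 14.8 in WT libraries. The HOM libraries were all lower, and the gap between HOM replicate 2 and WT replicate 2 was small. Tet1 made up 5.64, 14.5 and 8.75% of that sum in HOM and 21.0, 21.4 and 18.3% in WT libraries. Tet3 made up 38.6, 39.4 and 42.3% in HOM and 34.0, 30.0 and 32.3% in WT libraries. A share of a sum rises when another part falls, so the share of Tet3 is not a separate change. The Dnmt genes summed to 10.6, 12.8 and 11.7 CPM per kilobase in HOM and 13.4, 15.2 and 12.95 in WT libraries. The plot of stacked levels shows both families.

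**Figure D3:**
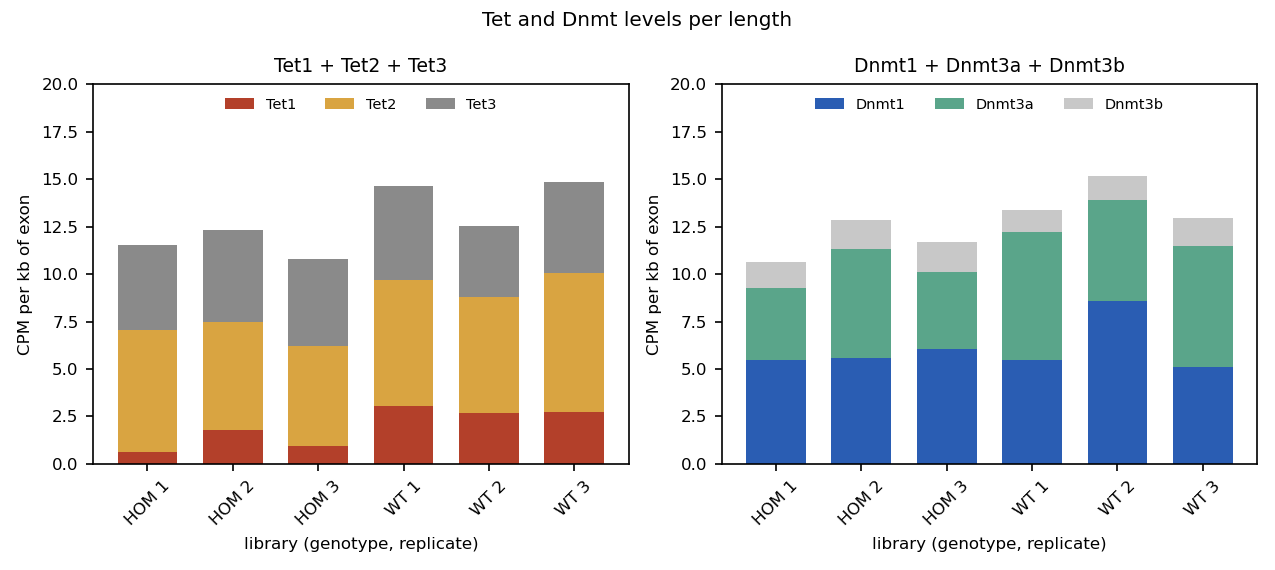
Level per length (CPM per kilobase of exon) of the 3 Tet genes (left) and the 3 Dnmt genes (right), stacked, in each HOM and WT library. The Tet1 block is shorter in all 3 HOM libraries (0.65 to 1.79) than in the WT libraries (2.69 to 3.07), while the Dnmt3b block is small throughout (1.37 to 1.61 in HOM and 1.17 to 1.49 in WT).

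Satellite cell markers moved with Tet1. Of the 7 markers, 5 were lower in HOM libraries (71.4%, beside 11.5% of all genes tested) and 0 higher. The markers were added after their values were seen, so these shares describe the list and test nothing. Myf5 and Chodl did not pass the test (adjusted p = 0.0512 and 0.13, edgeR). Pax7, the transcription factor that defines satellite cells, had 23.0, 52.2 and 19.4 CPM in HOM and 86.6, 66.1 and 74.7 CPM in WT libraries. Vcam1, an adhesion molecule used to isolate these cells, had 43.5, 92.5 and 40.6 CPM in HOM and 202, 208 and 209 CPM in WT libraries. For both, as for Tet1, HOM replicate 2 was the highest of the HOM libraries and stayed below WT. Not every marker had this pattern. Chodl, a membrane lectin, was at 481 CPM in HOM replicate 2 and 423 CPM in WT replicate 2, and Itga7, an integrin, was at 243, 327 and 328 CPM in HOM libraries, against 473, 469.6 and 394 CPM in WT libraries. Set against the summed markers of the same library, Tet1 reached 1.88, 2.29 and 2.34% in HOM and 2.88, 2.70 and 2.67% in WT libraries. These ranges did not overlap but lay closer together than the Tet1 levels did. The sum rests most on Itga7 and Chodl, with means of 299 and 259 CPM in HOM and 446 and 483 CPM in WT libraries. Their log2 fold changes (-0.57 and -0.90), like those of Calcr (-1.09) and Pax7 (-1.25), were smaller in size than that of Tet1 (-1.31). Those of Myf5 (-1.44), Vcam1 (-1.80) and Cdh15 (-2.45) were larger in size, so the gap depends on the markers summed. Markers of fibro-adipogenic progenitors, which lie beside satellite cells in muscle, summed to 1130 to 1380 CPM in HOM and 1840 to 2040 CPM in WT libraries, with 3 of 6 lower and 1 higher. The part of these shifts in the Tet1 value was not tested.

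**Figure D4:**
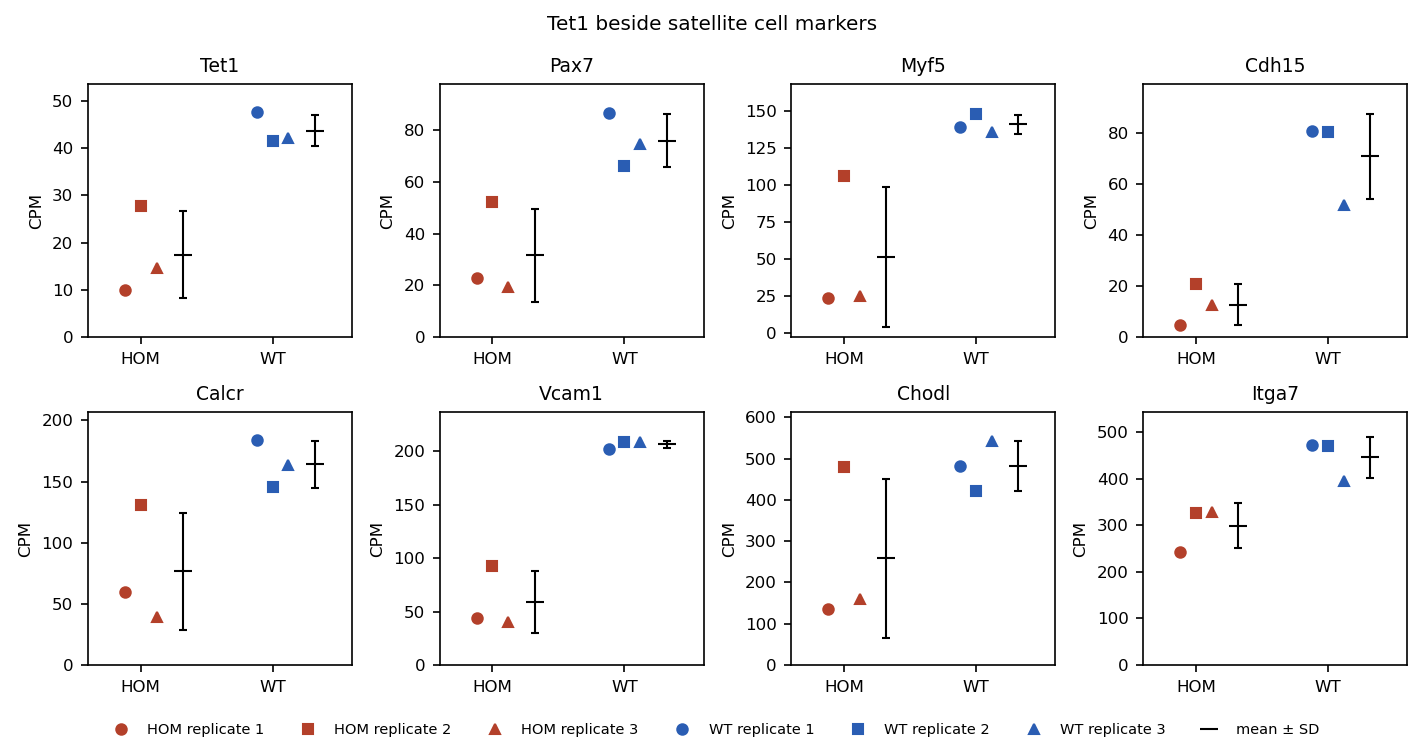
CPM of Tet1 and of all 7 satellite cell markers in each HOM and WT library (points), with mean and SD per genotype (black). All HOM libraries lie below all WT libraries except for Chodl, where HOM replicate 2 (square, 481 CPM) lies above WT replicate 2 (423 CPM). HOM replicate 2 is the highest HOM library except for Itga7, where HOM replicate 3 (328 CPM) is level with it (327 CPM).

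For the copying enzymes, stretches of promoter with letters of the E2F consensus are shown, since E2F factors drive S phase genes. The consensus was searched on both strands as TTTCCCGC, TTTCGCGC, TTTGCCGC and TTTGGCGC in the RefSeq windows of 300 bases. Among the 15 windows of the 8 genes, 2 held a match, 1 of Dnmt1 and 1 of Uhrf1, and 2.26% of all 32851 windows did. Every spelling holds a CpG, and both matching windows held 33 CpGs, against a median of 7 over all windows. The share over all windows is therefore not a like comparison. Capitals mark the match, at chr9:20952815-20952862 and chr9:20952574-20952610 (minus strand) for Dnmt1 and chr17:56304108-56304155 (plus strand) for Uhrf1.
Dnmt1, first match: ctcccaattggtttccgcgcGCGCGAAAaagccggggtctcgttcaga
Dnmt1, second match: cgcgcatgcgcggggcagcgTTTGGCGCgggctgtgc
Uhrf1: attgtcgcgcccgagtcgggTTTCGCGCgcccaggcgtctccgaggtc
The first Dnmt1 match is the reverse complement of the second spelling in that list. A match of letters does not show that a factor binds.

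Dnmt1 (chromosome 9, 20907209 to 20959888, minus strand) encodes the maintenance methyltransferase. It had 40.6, 41.01 and 44.6 CPM in HOM and 40.4, 63.2 and 37.8 CPM in WT libraries. The HOM libraries lay close together, inside the WT range. WT replicate 2 was the highest library, and the other WT libraries lay below all HOM libraries. The means were 42.1 ± 2.23 CPM in HOM and 47.2 ± 14.0 CPM in WT libraries (SD, n = 3), with a log2 fold change of -0.16 (SE 0.18, 95% interval -0.57 to 0.25, adjusted p = 0.567, edgeR). Without WT replicate 2 it was 0.11, so its sign rested on that library.

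Uhrf1 (chromosome 17, 56303321 to 56323486, plus strand) encodes the protein that recognises half-methylated CpGs. It had 6.69, 1.59 and 7.70 CPM in HOM and 6.00, 24.6 and 2.91 CPM in WT libraries, on 48, 15 and 59 reads in HOM and 52, 155 and 23 reads in WT. The lowest value was in HOM replicate 2 and the highest in WT replicate 2, and of the other 4 libraries both HOM values lay above both WT values. The log2 fold change was -1.06 (SE 0.72, 95% interval -2.65 to 0.53, adjusted p = 0.316, edgeR), and it was 0.22 without WT replicate 2. The interval covers both a decrease and an increase. Without a filter on low counts Uhrf1 passed the test, with an adjusted p of 0.000257 on the same reads.

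Genes of S phase and mitosis gave a context for both. 20 S phase genes summed to 352, 290 and 362 CPM in HOM and 310, 569 and 341 CPM in WT libraries. WT replicate 2 was highest, and the other libraries of both genotypes overlapped. In this list 3 of 20 genes were lower and 1 was higher (20% called), beside 21.1% of all genes tested. Rrm1, a subunit of the enzyme that makes deoxynucleotides, was lower (-0.88 on the log2 scale), as were Pola1, a polymerase subunit (-0.76), and Mcm2. The gene that rose was Mcm7, a part of the replicative helicase (0.70), whose exons overlap those of Ap4m1 and Cops6 on the other strand. Without a filter on low counts 6 genes were lower, without WT replicate 2 or with Y-linked reads as a covariate 1 was lower, and without WT replicate 1 or WT replicate 3, 0 were higher. Without both libraries high in Gm42418, 1 was lower and 3 were higher. The 16 mitosis genes summed to 60.7, 76.3 and 56.2 CPM in HOM and 177, 493 and 144 CPM in WT libraries. All HOM libraries were lower, and 12 of 15 tested genes fell (80%), beside 11.5% of all genes tested. This list too was chosen with earlier results of these data known, so the share is descriptive. The number that fell was 6 without HOM replicate 1, 7 without HOM replicate 3 and 8 without WT replicate 2. Mki67, which marks cycling cells, had 8.92, 11.9 and 9.14 CPM in HOM libraries, against 50.5, 140 and 43.04 CPM in WT libraries. It fell by 2.94 on the log2 scale, and the spindle motor Kif11 by 2.51. Cenpf, a centromere protein, was lower too, with 1.12, 1.16 and 0.39 CPM in HOM and 12.7, 24.4 and 7.34 CPM in WT libraries.

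Dnmt1 came to 11.5, 14.2 and 12.3% of the summed S phase CPM in HOM and 13.03, 11.1 and 11.1% in WT libraries. The mean log2 ratio was -2.99 in HOM and -3.09 in WT libraries, a difference of 0.11 (exact two-sided permutation test, p = 0.5, where 3 against 3 libraries cannot go below 0.1). This ratio varied little between libraries, with an SD of 0.15 in HOM and 0.13 in WT. Uhrf1 came to 1.90, 0.55 and 2.13% in HOM and 1.94, 4.32 and 0.85% in WT libraries, with mean log2 ratios of -6.26 in HOM and -5.70 in WT and a difference of -0.56 (exact permutation p = 0.6). Its ratio varied with an SD of 1.09 in HOM and 1.17 in WT libraries. That difference was 0.06 without HOM replicate 2 and 0.02 without WT replicate 2.

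**Figure D5:**
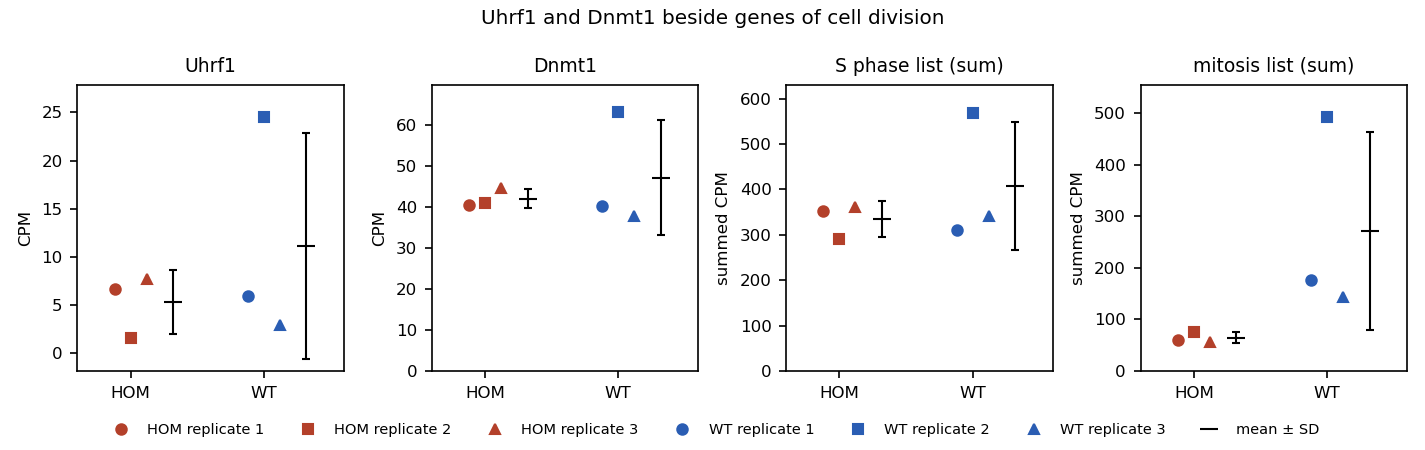
CPM of Uhrf1 and Dnmt1 and summed CPM of 20 S phase and 16 mitosis genes in each HOM and WT library (points), with mean and SD per genotype (black). WT replicate 2 (blue square) is the highest library in every panel, and the genotypes are separate only for the mitosis genes.

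Dnmt3a (chromosome 12, 3806007 to 3914443, plus strand), the main de novo enzyme of adult stem cells in mice, had 62.5, 95.7 and 67.5 CPM in HOM and 112, 88.6 and 105 CPM in WT libraries. HOM replicate 2 lay above WT replicate 2, and the other HOM libraries lay below all WT libraries. The means were 75.2 ± 17.9 CPM in HOM and 102 ± 12.2 CPM in WT libraries (SD, n = 3). Its log2 fold change was -0.44 (SE 0.17, 95% interval -0.81 to -0.07 before correction, adjusted p = 0.0854, edgeR), so it did not pass. It passed without HOM replicate 2 (-0.65, adjusted p = 0.0042), and without both libraries high in Gm42418 (-0.75, adjusted p = 0.00079). With those 2 left out, 2 of the 8 genes were called, Tet1 and Dnmt3a. Over all 14 alternatives its log2 fold change was -0.75 to -0.32 and its adjusted p 0.00079 to 0.26.

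Dnmt3b (chromosome 2, 153649450 to 153687730, plus strand), the de novo enzyme used mainly in the embryo, was low. It had 6.97, 7.82 and 8.22 CPM in HOM and 6.00, 6.50 and 7.59 CPM in WT libraries, and the ranges overlapped. The log2 fold change was 0.20 (SE 0.20, 95% interval -0.25 to 0.64, adjusted p = 0.511, edgeR). Dnmt3l, the catalytically inactive partner of both enzymes in germ cells, had 0 reads in all 6 libraries, which at 3 reads over a genotype allows up to 0.123 CPM in HOM and 0.131 CPM in WT.

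Zfp57 (chromosome 17, 37001163 to 37010635, plus strand) was the lowest of the 8, with 13, 30 and 20 reads in HOM and 22, 9 and 39 reads in WT libraries. On the CPM scale these were 1.81, 3.17 and 2.61 in HOM and 2.54, 1.43 and 4.94 in WT. The HOM values lay inside the WT range. The log2 fold change was -0.23 (SE 0.42, 95% interval -1.18 to 0.71, adjusted p = 0.725, edgeR), and 0.33 without WT replicate 3. The interval covers both a decrease and an increase at this depth. Its partners were abundant. Trim28, the corepressor that Zfp57 recruits, was at 156 ± 7.11 CPM in HOM and 150 ± 6.35 CPM in WT libraries (SD, n = 3), and 0 of its 4 listed partners passed edgeR's test, DESeq2's test or an unadjusted p under 0.05.

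Transcripts from imprinted loci, at many of which Zfp57 acts in mice, were lower for 12 of 24 tested genes and higher for 0 with edgeR. That is 50% called, beside 21.1% of all genes tested, of which 11.5% were lower. The list was chosen with earlier results of these data known, so these shares describe it and test nothing. An unadjusted p under 0.05 was reached by 15, and DESeq2 called 12. Neither methylation nor the expressed allele was measured here, and the cause of these falls was not tested. The median log2 fold change of the list was -0.43. Without HOM replicate 2 or WT replicate 3, or without a filter on low counts, 1 was higher. Mest, a paternally expressed hydrolase-like gene, was at 47.4 ± 4.17 CPM in HOM and 162 ± 25.9 CPM in WT libraries, with exons that overlap Copg2 on the other strand. Dlk1, a paternally expressed Notch-like protein, was at 2.06 ± 0.47 CPM in HOM and 16.7 ± 3.37 CPM in WT libraries. H19, a maternally expressed noncoding RNA, was at 49.5 CPM in HOM and 138 CPM in WT libraries on average. Peg3, a paternally expressed zinc finger gene picked after its values were seen, did not pass, at 0.05 (SE 0.28) on the log2 scale.

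Most of the listed genes that DNA methylation is known to keep silent outside the germ line stayed near 0. Of 17 listed, 15 had too few reads to test, and these held 31 reads in HOM and 19 in WT libraries. Brdt, a testis bromodomain gene, held most of the rest and was at 6.32 ± 1.30 CPM in HOM and 5.83 ± 0.23 CPM in WT libraries. Piwil2, the other tested gene, was at 2.29 ± 0.36 CPM in HOM and 2.10 ± 1.06 CPM in WT libraries. 0 of the 2 tested genes passed edgeR's test, DESeq2's test or an unadjusted p under 0.05.

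Other genes of the methylation machinery were read from 6 lists of textbook partners, with 50 genes, of which 45 could be tested. 5 were higher and 2 lower in HOM libraries, 15.6% in all, below the 21.1% of all genes tested. Among partners of copying, 0 of 6 passed in either direction with edgeR, and 2 had an unadjusted p under 0.05. 1 was higher with DESeq2, and also with edgeR on library totals, without a filter on low counts, without HOM replicate 2 or without both libraries high in Gm42418. Pcna, the sliding clamp of replication, was the most abundant and stood at 288, 218 and 257 CPM in HOM and 152, 212 and 194 CPM in WT libraries (log2 fold change 0.45, SE 0.16, adjusted p = 0.0644, edgeR). The helicase Hells, which opens chromatin for Dnmt1, had 5.16, 4.33 and 5.48 CPM in HOM and 5.54, 13.8 and 4.18 CPM in WT libraries, with WT replicate 2 again apart.

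Among 15 tested genes of oxidative demethylation and base excision repair, 2 were lower and 0 higher. That is 13.3% called, beside 21.1% of all genes tested, of which 11.5% were lower, so the list did not stand out. Without HOM replicate 2, 4 were lower and 1 was higher, without WT replicate 2, 1 was lower, and without both libraries high in Gm42418, 1 was higher. Cxxc5, a CXXC finger protein that can bind Tet2, had 14.9, 18.8 and 14.2 CPM in HOM and 31.4, 28.7 and 24.1 CPM in WT libraries. The genotypes did not overlap (log2 fold change -0.81, SE 0.16, adjusted p = 0.0082, edgeR). Parp1, which senses DNA strand breaks, was at 29.9 ± 8.52 CPM in HOM and 52.5 ± 3.29 CPM in WT libraries and fell by 0.81 on the log2 scale (SE 0.19, edgeR's adjusted p = 0.0143). Without WT replicate 2 the adjusted p was 0.0504. Tdg, the glycosylase that cuts out the products of Tet enzymes, was at 24.3 ± 1.21 CPM in HOM and 28.0 ± 2.13 CPM in WT libraries and did not pass (adjusted p = 0.277). Its exons overlap those of Glt8d2 on the other strand.

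Of 7 readers of methylated CpG, 1 was higher and 0 lower (14.3% called, beside 21.1% of all genes tested). Without HOM replicate 2 or without both libraries high in Gm42418, 1 was lower. Mbd1, a repressor with a methyl-CpG binding domain, had 55.9, 43.8 and 46.6 CPM in HOM and 33.3, 33.8 and 30.9 CPM in WT libraries. The genotypes did not overlap (log2 fold change 0.58, SE 0.13, adjusted p = 0.0126, edgeR). Of 5 readers of unmethylated CpG, 2 were higher and 0 lower (40% called), too short a list to set against the 21.1% of all genes tested. They were the histone methyltransferases Kmt2b (0.59, SE 0.14, adjusted p = 0.0163, edgeR) and Kmt2a (0.43, SE 0.13, adjusted p = 0.0372, edgeR). Without HOM replicate 1, HOM replicate 3 or WT replicate 2, 0 of the 5 were higher. Without WT replicate 1 or WT replicate 3, or with Y-linked reads as a covariate, 1 was.

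In the supply of methyl donor, 2 of 8 genes were higher and 0 lower (25% called), near the 21.1% of all genes tested. Mat2a, which makes S-adenosylmethionine, had 680, 525 and 728 CPM in HOM and 374, 345 and 428 CPM in WT libraries. Every HOM library was above every WT library (log2 fold change 0.75, SE 0.16, adjusted p = 0.0093, edgeR). Its exons overlap those of Particl on the other strand over 11.3% of their length, where Particl had 24 to 57 reads per library. Ahcy, which clears the by-product of methylation, was at 70.9 ± 16.2 CPM in HOM and 46.2 ± 11.05 CPM in WT libraries (log2 fold change 0.62, SE 0.20, adjusted p = 0.0472), and did not pass without HOM replicate 1, HOM replicate 3, WT replicate 1 or WT replicate 3 (adjusted p of 0.078 to 0.17), with a replicate block (0.0556) or with Y-linked reads as a covariate (0.0926). The list had 1 gene higher in each of these 6 alternatives.

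The genes whose pattern over the 6 libraries lay nearest to each of the 8 were sought among 12615 genes of at least 1 CPM. Distance was the root mean square difference of log2 CPM after centring each gene on its mean. Nearest to Tet1 were Tln2, the talin of mature muscle attachments (0.0763), Tenm4, a teneurin (0.0842), and Gxylt2, a xylosyltransferase of Notch (0.107). Uhrf1 had no near neighbour. Its closest were 3 replication-dependent histone genes, Hist1h2an (0.428), Hist1h3d (0.455) and Hist1h4k (0.514), whose near-identical copies make single counts uncertain. Dnmt3a lay nearest to Cgnl1 (0.0538), Sh3d19 (0.0540) and Gtf2i (0.0627), and Dnmt1 to Mrps30 (0.0426), Rps2 (0.0442) and Ndufv1 (0.0523). The nearest genes were Klf6, Mindy2 and Purb for Tet2, Ccl27a, Pcgf3 and Aasdh for Tet3, and Itpkc, Fasn and Mxd1 for Dnmt3b, all within 0.0411. For Zfp57 they were Sp140, Trim30a and Inpp5d, at 0.153 to 0.194. A flat pattern has many near genes, so these distances describe the 6 libraries and no more.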

How the data were processed

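Total RNA from sorted satellite cells was sequenced in 6 libraries after ribosomal RNA depletion, with a stranded kit (per the labels' protocols). What the authors deposited are raw counts of reads for each Ensembl gene, in a file for every library. The submitters' processing notes name Trimmomatic 0.32, STAR 2.5.2b, HTSeq 0.6.1 and mm10. The sources used here do not give the strand setting or the annotation that was counted.

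Libraries were grouped by title. GENCODE M21 (GRCm38, the assembly of mm10) named 38861 of 39059 genes. The 5 summary lines, 45.0 to 49.8% of each file, stayed out of totals and tests. R 4.3.3 with edgeR 4.0.16 was used: filterByExpr (minimum count 10, minimum total 15), TMM factors, the quasi-likelihood test without covariates, and Benjamini-Hochberg adjustment over 14099 genes with a threshold of 0.05. The SE is the size of the log2 fold change divided by the square root of F. Intervals use 10.3 degrees of freedom. Limits set by 0 reads cover counting error only, because duplicates of 1 molecule were not told apart. Libraries of a genotype differed by more than sampling noise (chi-square of 9.16 to 25.1 per gene).

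The 8 genes, the gene lists and the libraries doubted were chosen with earlier results of these data known. Named besides the 8 are, per list, up to 3 called genes ranked by p, or the gene of highest level where none was called, the 3 genes nearest in pattern to each of the 8 (mean of at least 1 CPM, pseudocount 0.5 CPM), and Mki67, Lmna and Gm42418. Marker genes, Tdg, Hells, Dnmt3l, Mcm2, Piwil2 and Peg3 were added after their values were seen. Alternatives were DESeq2 1.42.0 size factors or its Wald test, library totals, other filters, a replicate block, a covariate of Y-linked reads, and leaving out libraries.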

Additional observations from a re-analysis of the deposited data

How the results depend on the processing

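Tet1 kept its direction and its call in all 14 alternatives. The number of the 8 genes called was 3 without a filter on low counts (Tet1, Dnmt3a and Uhrf1), 2 without the 2 libraries high in Gm42418 and 1 to 2 on leaving out a library, and that of the listed pathway genes 22 to 42 against 35. Without the filter the log2 fold changes of Dnmt3a (-0.45) and Uhrf1 (-1.07) passed, and the cause was not tested. Without the 2 libraries high in Gm42418, Dnmt3a passed at -0.75, and the log2 fold changes of Dnmt1 (0.12), Uhrf1 (0.68) and Tet3 (-0.12), the ratio of Uhrf1 (0.65) and that of Dnmt1 (-0.012) to S phase genes turned sign. Leaving out 1 library gave -0.30 to 0.11 for Dnmt1, -0.65 to -0.32 for Dnmt3a, -1.52 to 0.22 for Uhrf1, -0.079 to 0.11 for Tet3, -0.53 to 0.33 for Zfp57 and -1.15 to 0.063 for the ratio of Uhrf1. Libraries of the same replicate number did not deviate alike over the genes (correlations of deviations -0.05, 0.02 and -0.10). Replicate 2 of both genotypes was high in Gm42418, so these correlations do not settle whether the libraries were paired. With the replicate number as a block 1 of the 8 was called, and 2437 genes in all against 2980. Partner genes called in the main fit, and the counts called per list, were followed over all alternatives. Of these values, 677 kept the call or, for counts, stayed within 1.5 times, with counts of 0 that stayed 0 among them. The call was lost in 58. Partner genes not called in the main fit were not followed singly, so gains of a call show only in the counts. The other 35 were counts that moved by over 1.5 times, or to or from 0. Depth limits Zfp57, with 63 reads in HOM and 70 in WT libraries, and Uhrf1 varied between libraries, from 15 to 155 reads.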
